A study of Mus musculus with 5 samples.

Results

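The genes described here are 37 targets of the hypoxia-inducible factors (HIF) and enzymes of glycolysis, measured in adherent peritoneal macrophages of mice with and without c-Jun in myeloid cells. The list of textbook members of both pathways was drawn up when measured differences of this same genotype comparison were known, among them that of Ankrd37. The differences of the members between the genotypes are therefore given as a description with no test. For each gene, the probe was chosen by its signal, as the one with the highest mean over the 5 arrays. Probes that failed the background filter or lacked a value on an array because of an outlying spot were not eligible. All 37 genes had a probe among the 21154 gene symbols on the array, and 35 of them were measured. Eno1 was left out because its single probe had an outlying spot on 1 array, and Mxi1 because its single probe did not rise well above background anywhere.

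The study compared peritoneal macrophages of wild-type mice (3 arrays, numbered 5, 11 and 14) with those of c-JunΔLysM mice (2 arrays, numbered 1 and 9), called c-Jun-deleted below. The genotype of the deleted mice is given as cJunfl/fl LysMCre-/+, that is, floxed c-Jun alleles with a Cre recombinase placed in the lysozyme gene Lyz2, which acts in macrophages, monocytes and neutrophils. Their source names give c-JunΔMx instead, which is another Cre line. All mice were 8 weeks old, on a 129/C57Bl6 background and of either sex, and the wild-type mice were littermates. Whether these carried floxed alleles or Cre is not stated. Cells came from peritoneal lavage and were kept on plates overnight, and RNA was taken from the cells that stuck. Nothing in the labels says that hypoxia or any stimulus was applied. The samples were treated as separate animals because the source names number the mice.

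HIF is a pair of proteins, an unstable alpha subunit (Hif1a or Epas1) and the stable subunit Arnt. In oxygen, prolyl hydroxylases of the Egln family mark the alpha subunit for destruction, and when they slow down it accumulates and switches on genes for glucose uptake, glycolysis, lactate export, mitophagy and vessel growth. Egln3, Ankrd37, Bnip3, Ak4 and Pdk1 are well-known direct targets. Macrophages lean on glycolysis when they are activated, and Hif1a also rises in them through inflammatory signals at normal oxygen. In the pathway itself, transporters bring glucose in, hexokinases trap it, phosphofructokinase commits it, and the lower enzymes yield pyruvate and lactate. c-Jun is a subunit of the transcription factor AP-1.

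Values are log2 of the processed signal relative to the 75th percentile of the same array, in the order wild-type 5, 11 and 14 and then c-Jun-deleted 1 and 9, and a difference is c-Jun-deleted minus wild-type with the standard error (SE) of the fit. Between 52.2% and 59.9% of the probes of an array were well above background, no spot was saturated, and the number of arrays limits the precision. Jun, the targeted gene, was at 3.21, 3.75 and 3.17 against 2.76 and 2.71. It is not known here whether its probe falls in the floxed segment, so it does not check the genotype. Lyz2 was at 8.70, 8.76 and 9.18 against 4.46 and 8.52, so c-Jun-deleted 1 was far below the other arrays. Xist, expressed from the inactive X chromosome of females, was at 0.20, -4.53 and -0.04 against 0.57 and 0.74, so wild-type 11 stood apart. Wild-type 5 shared slide 1 with c-Jun-deleted 1, and the other 3 arrays were on slide 2. The limma fit covered 27956 features, called genes tested below, of which 14657 have a gene symbol and the rest are single probes without one. Of these, 0 (0%) had a Benjamini-Hochberg adjusted p below 0.05. The smallest adjusted p was 0.0957, 3394 genes had an unadjusted p below 0.05, and 187 passed limma's adjusted threshold when each array was centred on its median instead.

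Most genes of the module were lower in the c-Jun-deleted macrophages. Of the 35 measured, 31 were lower and 4 were higher. Among all 27956 genes tested, 17158 were lower and 10798 higher, so lower values were also the more common ones across the array. For 22 of the 35 members both c-Jun-deleted arrays lay below all 3 wild-type arrays, and 20.2% of all genes tested did so. Adm alone lay above them, as did 13.3% of all genes. Groups that did not overlap with a difference of at least 2-fold were found for 11 members on the lower side and 1 on the higher side, against 4.27% and 3.88% of all genes. Over the genes with a symbol alone these shares were 20.4% below, 13.6% above, 3.88% at least 2-fold lower and 3.75% at least 2-fold higher. The median difference was -0.64 over the members and -0.09 over all genes tested. By role, the median was -1.39 for glucose and lactate transport, -1.18 for both the control of flux and the mitochondrial targets, -0.68 for the enzymes and -0.64 for the oxygen-dependent enzymes. It was -0.37 for the HIF alpha subunits and -0.20 for the secreted and growth control targets. Epas1 counts as lower in these figures by its brightest probe alone (-0.11), and its other probes were higher (1.04 and 1.00).

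**Figure D1:**
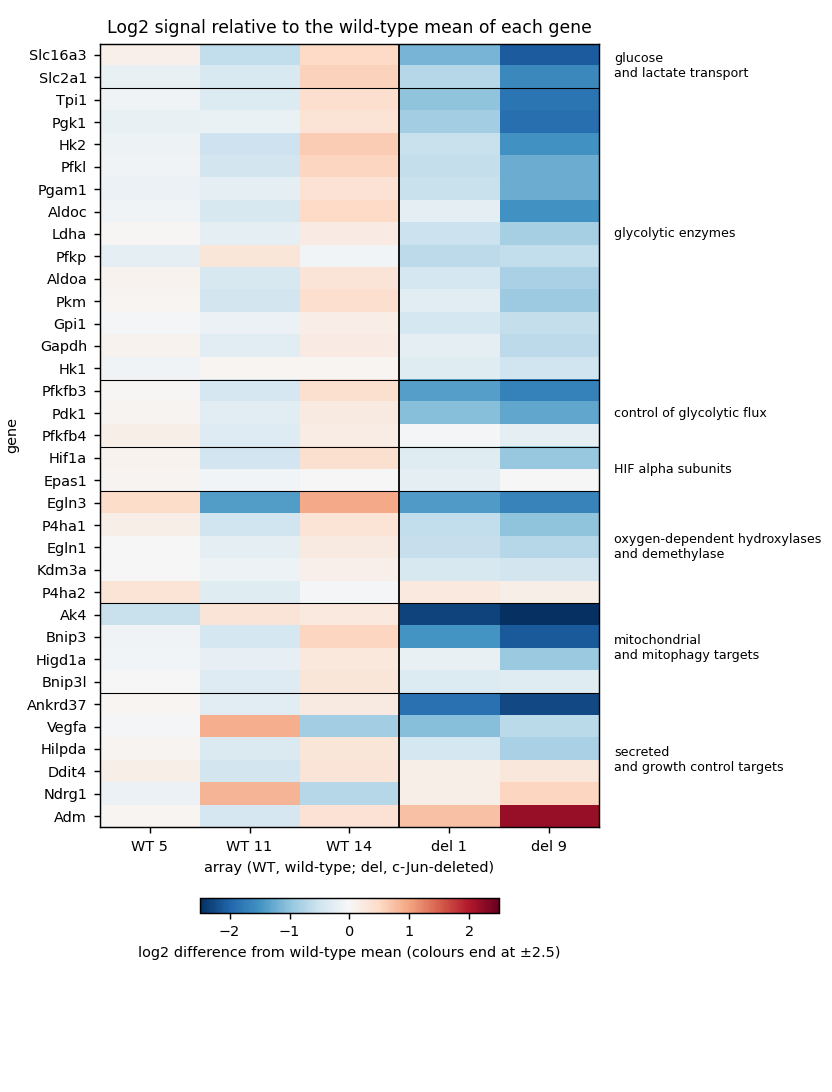
Heat map of the 35 measured genes (rows, grouped by role) on the 5 arrays (columns; WT, wild-type; del, c-Jun-deleted), with the colour giving log2 signal minus the gene's wild-type mean, blue for lower and red for higher. The deepest blue is Ak4 on del 9, the column of WT 11 is mostly pale blue, and Adm on del 9 is the darkest red.

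The arrays of each group also came in 1 order for most members. The median of the 35 genes, each set against its own wild-type mean, was 0.01 on wild-type 5, -0.31 on wild-type 11 and 0.30 on wild-type 14, and -0.53 and -0.91 on c-Jun-deleted 1 and 9. Wild-type 14 was the highest wild-type array for 29 of 35 members (82.9%), against 34.6% of all genes tested and 41.8% of those with a symbol. Wild-type 11 was the lowest for 29 of 35 (82.9%), against 41.4% and 47.0%, and it was also the array with low Xist. The linear signals of large peritoneal macrophage markers summed to 212 on wild-type 11, the lowest of the 5 arrays, and those of mesothelial and stromal (12.3) and monocyte-derived macrophage and dendritic cell markers (240) were the highest. The part of sex or of other cells in these values was not tested. Of the deleted arrays, c-Jun-deleted 9 was below c-Jun-deleted 1 for 28 of 35 members (80%), against 49.0% of all genes and 55.1% of those with a symbol. Much of this order was shared by the other glycolysis, pyruvate and pentose phosphate genes described below. There, wild-type 14 was highest for 62.2%, wild-type 11 lowest for 57.8%, and c-Jun-deleted 9 below c-Jun-deleted 1 for 71.1%. For the other HIF pathway genes these shares were 45.5%, 52.7% and 52.7%. The median standard deviation among the wild-type arrays was 0.37 for the members, 0.24 for all genes tested and 0.21 for those with a symbol.

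The 5 members with the largest differences on the lower side and with an entry in the promoter table were Ak4, Ankrd37, Bnip3, Slc16a3 and Egln3. Their promoters are shown because HIF reads a short core, ACGTG or GCGTG, and this is what those letters look like upstream of the genes that differed most. The sequences are from RefSeq, build GRCm38.p6, and lie within 250 bases before the most upstream listed start. They run 5′ to 3′ along the gene's strand, and capitals mark ACGTG or GCGTG on either strand, so CACGT and CACGC are their reverse forms and CACGTG counts on both. A match is a description of the letters, not evidence of binding. The stretch of Ankrd37 is chr8:45999851-45999880 on the minus strand, that of Ak4 chr4:101419240-101419269 on the plus strand and that of Slc16a3 chr11:120949037-120949066 on the plus strand. Whole windows are given for Bnip3, chr7:138909507-138909756, and Egln3, chr12:54203875-54204124, both on the minus strand.
Ankrd37: ggctgcacatgtcagtgtttgggtACGTGa
Ak4: cgcggcggcggtaGCGTGgagccggctccc
Slc16a3: gtgACGTGcgcgggggACGTGccgcgcgac
Bnip3: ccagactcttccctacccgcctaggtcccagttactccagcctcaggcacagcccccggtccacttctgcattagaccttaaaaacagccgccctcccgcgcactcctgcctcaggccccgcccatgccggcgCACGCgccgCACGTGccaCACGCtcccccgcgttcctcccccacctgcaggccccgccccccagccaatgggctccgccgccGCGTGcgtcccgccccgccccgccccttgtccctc
Egln3: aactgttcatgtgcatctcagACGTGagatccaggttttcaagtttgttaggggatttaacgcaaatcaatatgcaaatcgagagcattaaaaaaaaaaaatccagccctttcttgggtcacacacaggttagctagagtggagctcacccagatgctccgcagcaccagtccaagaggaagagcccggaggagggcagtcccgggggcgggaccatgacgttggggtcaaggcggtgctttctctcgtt

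Bnip3 held 5 matches between 35 and 117 bases before its start. Ankrd37 held 4, the nearest 6 bases before the start. Slc16a3 had a pair 14 and 27 bases before it, Ak4 had 2 matches, 36 and 74 bases away, and Egln3 had 1, at 229 bases. Of the 34 members with a promoter in the table, 26 (76.5%) held at least 1 match, against 52.6% of 11705 genes tested on these arrays and 38.6% of all 27025 genes in the table. The share was 77.3% among the 22 members below the wild-type range and 80% among the 10 other measured members with a window. For ACGTG alone it was 54.5% and 30%, with 20.4% of the genes tested, and the median number of CG pairs was 19 and 12.5. Windows of members also held more CG pairs, with a median of 16.5 against 14 for the genes tested, and both core motifs contain CG. The AP-1 motif TGANTCA, searched in the same windows, was in 0 of 34 members and in 4.87% of the genes tested. Bnip3l, Ndrg1 and Epas1 were not in the table.

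Both transporters were lower. Slc2a1, the glucose transporter Glut1 that brings glucose into the cell, was at 4.10, 3.91 and 4.86 against 3.58 and 2.68. The groups did not overlap, and the difference was -1.16 (SE 0.42), or 2.23-fold lower. Slc16a3, the lactate exporter Mct4, was at 5.64, 4.91 and 6.02 against 4.36 and 3.45. It also lay below the wild-type range on both deleted arrays, with a difference of -1.62 (SE 0.45), 3.07-fold lower. A further Slc16a3 probe gave -1.67.

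All 13 measured glycolytic enzymes were lower, 10 of them below the wild-type range on both deleted arrays, with differences between -0.40 and -1.42 and a median of -0.68. Hk1 and Gapdh were not lower when arrays were scaled to macrophage markers (0.12 and 0.06). Of the hexokinases, which phosphorylate glucose on entry, Hk2, the inducible form, was at 2.75, 2.35 and 3.49 against 2.30 and 1.36. The difference of Hk2 was -1.03 (SE 0.46), although the gap between the highest deleted and the lowest wild-type array was only 0.05. Hk1, the constitutive form, was at 4.72, 4.85 and 4.86 against 4.51 and 4.31, a small difference of -0.40 (SE 0.15) with no overlap. Gpi1, which turns glucose 6-phosphate into fructose 6-phosphate, was at 7.68, 7.56 and 7.87 against 7.27 and 7.10 (-0.52, SE 0.17). Another Gpi1 probe, left out for an outlying spot, was slightly brighter with that spot kept and gave -0.26. Phosphofructokinase, the committing step, was represented by its liver-type and platelet-type subunits. Pfkl was at 3.13, 2.75 and 3.76 against 2.62 and 1.98 (-0.91, SE 0.38). Pfkp was at 1.76, 2.28 and 1.91 against 1.33 and 1.37 (-0.63, SE 0.20). Neither subunit overlapped between the groups, but wild-type 11 was the highest array for Pfkp and the lowest wild-type array for Pfkl.

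Below that step, the largest differences among the enzymes belonged to Tpi1 and Pgk1. Tpi1, the triose phosphate isomerase, was at 6.02, 5.77 and 6.53 against 5.09 and 4.28, 2.68-fold lower (-1.42, SE 0.36). Pgk1, which makes the first ATP of the pathway, was at 6.95, 6.97 and 7.49 against 6.27 and 5.25, 2.59-fold lower (-1.37, SE 0.37). For both, the highest deleted array was 0.68 below the lowest wild-type array. Pgam1, the mutase that follows Pgk1, was at 6.50, 6.41 and 7.01 against 6.08 and 5.39 (-0.90, SE 0.31). Aldolase, which splits the hexose, gave different pictures for its genes. Aldoa was at 9.04, 8.55 and 9.28 against 8.52 and 8.16 (-0.62, SE 0.27), with a gap of 0.04. Aldoc was at 4.19, 3.88 and 4.78 against 4.05 and 2.77 (-0.87, SE 0.48), and c-Jun-deleted 1 lay inside the wild-type range.

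At the end of the pathway, Ldha, which turns pyruvate into lactate, was at 8.45, 8.16 and 8.62 against 7.88 and 7.59. Both deleted arrays were below wild-type, and the difference was -0.68 (SE 0.21). Other Ldha probes gave -0.98 and -1.08. Pkm, the pyruvate kinase, was at 6.48, 5.97 and 6.85 against 6.16 and 5.52, so the groups overlapped (-0.60, SE 0.35). Gapdh, which is widely used as a loading control, had a difference of -0.45 (SE 0.23) on its brightest probe, also with overlap. Its other probes gave -0.53 to -0.75, most of them with no overlap. The probe with -0.64 was at 7.75, 7.48 and 8.03 against 7.37 and 6.85. The probe with -0.53 did overlap. Eno1, the enolase between Pgam1 and Pkm, was at 7.60, 7.53 and 7.92 against 6.86 and 6.74 with its outlying spot kept, a difference of -0.88. Several of these enzymes have near-identical processed pseudogenes, and what part of a probe's signal comes from them was not tested.

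**Figure D2:**
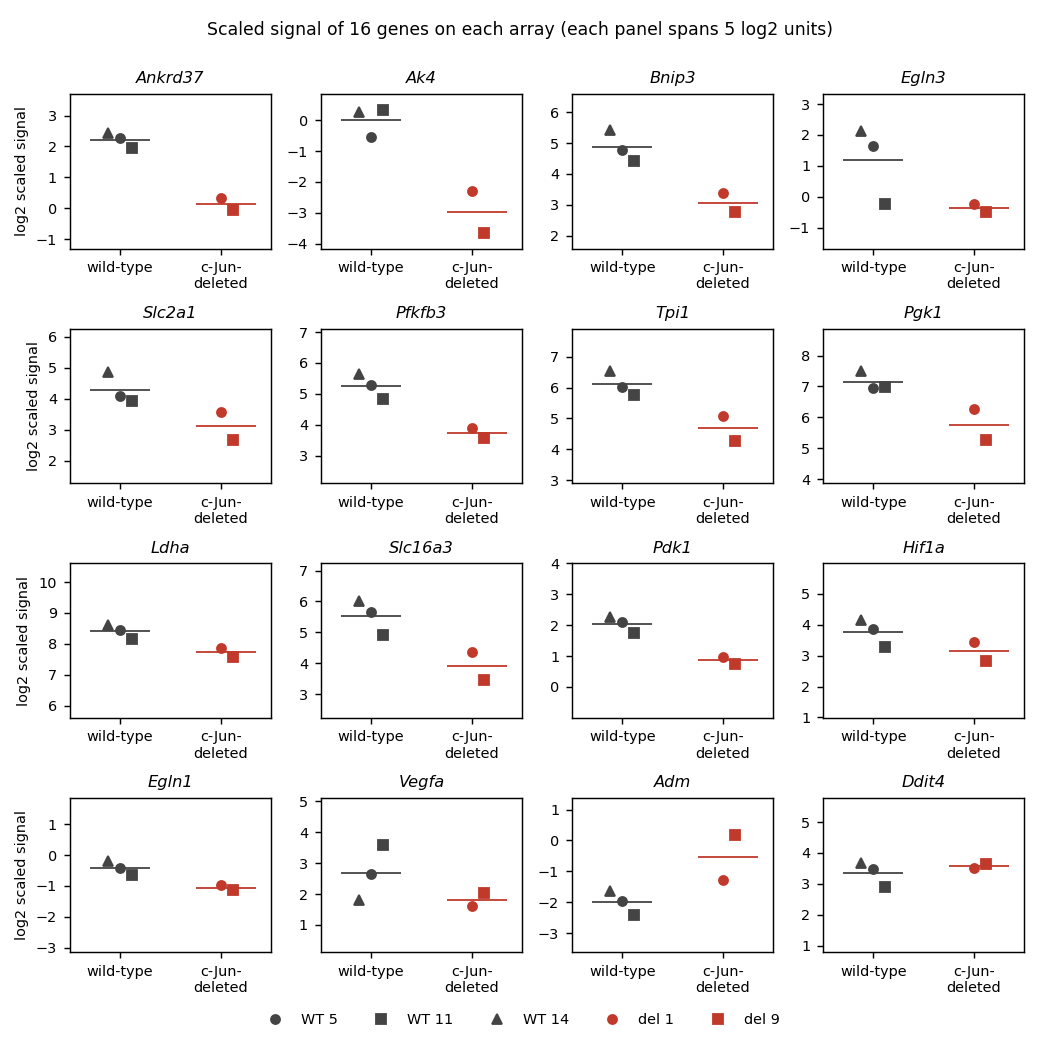
Log2 scaled signal of 16 members on each array, in panels that all span the same range of 5 log2 units; symbols stand for the 5 arrays, grey for wild-type and red for c-Jun-deleted, and lines are group means. In Ankrd37, Ak4, Bnip3, Pfkfb3 and Pdk1 the groups are clear of each other, in Egln3 WT 11 lies at the level of the deleted arrays, and in Adm the deleted arrays are above.

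Of the genes that set the pace of glycolysis, 2 of 3 were below the wild-type range. Pfkfb3, whose product makes the allosteric activator of phosphofructokinase, was at 5.28, 4.84 and 5.65 against 3.89 and 3.57. That is 2.89-fold lower (-1.53, SE 0.29), with a gap of 0.95 between the groups, and a second Pfkfb3 probe gave -1.44. Pdk1, the kinase that shuts pyruvate out of the mitochondrion by blocking pyruvate dehydrogenase, was at 2.11, 1.75 and 2.26 against 0.98 and 0.74, 2.27-fold lower (-1.18, SE 0.21). Pfkfb4, the paralog of Pfkfb3, had a difference of -0.14 (SE 0.22) with overlapping groups, and a dim second probe gave 0.47.

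The alpha subunits gave no common picture. Hif1a was at 3.86, 3.27 and 4.15 against 3.45 and 2.82. Its difference was -0.62 (SE 0.35), and c-Jun-deleted 1 lay between wild-type 11 and wild-type 5. Epas1, the HIF-2 alpha subunit, was at 2.98, 2.85 and 2.93 against 2.67 and 2.94 on its brightest probe (-0.11, SE 0.16). The other Epas1 probes went the opposite way with no overlap. One was at 3.01, 1.59 and 2.57 against 3.36 and 3.51 (1.04), and the other at -1.89, -3.22 and -2.09 against -1.32 and -1.49 (1.00). The probes disagree, so no direction is given for this gene. HIF alpha is controlled mainly at the protein level, which arrays do not measure.

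Among the enzymes that use oxygen to hydroxylate or demethylate, 4 of 5 were below the wild-type range. Egln3, a HIF prolyl hydroxylase and itself a HIF target, was at 1.64, -0.22 and 2.13 against -0.23 and -0.48. Its mean was 2.90-fold lower (-1.54, SE 0.74), but wild-type 11 was only 0.01 above c-Jun-deleted 1. A second Egln3 probe showed the same order, with -1.73. Egln1, the main hydroxylase acting on HIF, was at -0.42, -0.63 and -0.18 against -0.98 and -1.12 (-0.64, SE 0.19), with no overlap. P4ha1, a subunit of collagen prolyl hydroxylase, was at 1.57, 0.93 and 1.76 against 0.80 and 0.41 (-0.82, SE 0.31). Kdm3a, a histone demethylase, was at 3.30, 3.17 and 3.43 against 2.91 and 2.84 (-0.43, SE 0.15). For both, every deleted array was below every wild-type array on the probe used. A second P4ha1 probe was at -0.94, -1.67 and -1.11 against -1.58 and -2.31 (-0.70), with overlap. P4ha2, the paralog of P4ha1, had a difference of 0.20 (SE 0.23) with overlap.

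Genes acting at the mitochondrion included the largest difference of the module. Ak4, an adenylate kinase of the mitochondrial matrix, was at -0.55, 0.33 and 0.25 against -2.31 and -3.64. That is 7.94-fold lower (-2.99, SE 0.50), with 1.76 between the groups, and the signal was well above background on all 5 arrays. Bnip3, a receptor that marks mitochondria for autophagy, was at 4.78, 4.42 and 5.41 against 3.38 and 2.76, 3.48-fold lower (-1.80, SE 0.37). Its other probes gave -1.81 and -2.05. Bnip3l, the related receptor also called Nix, differed by -0.32 (SE 0.22), and its groups overlapped on the probe used. Its other probes gave -0.38 with overlap, and -0.40 and -0.42 without. Higd1a, a small protein of the inner membrane, was at 5.34, 5.20 and 5.68 against 5.23 and 4.48 (-0.55, SE 0.29), so c-Jun-deleted 1 lay inside the wild-type range. A second Higd1a probe, at 3.36, 3.51 and 3.77 against 3.27 and 2.74 (-0.54), had no overlap.

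The secreted and growth control targets were divided, with 3 lower and 3 higher among 6 measured. Ankrd37, a small ankyrin repeat protein, was at 2.26, 1.95 and 2.44 against 0.34 and -0.05, 4.20-fold lower (-2.07, SE 0.23), with a gap of 1.61. Hilpda, which blocks lipolysis at lipid droplets, was at 2.48, 2.03 and 2.70 against 1.97 and 1.59 (-0.62, SE 0.26), with no overlap and a gap of 0.07. A second Hilpda probe was at 2.42, 2.02 and 2.57 against 2.04 and 1.60 (-0.52), and there the groups overlapped. Vegfa, the vessel growth factor, was at 2.64, 3.60 and 1.82 against 1.62 and 2.02 (-0.87, SE 0.55). Its wild-type arrays were spread more widely than the groups were apart, with wild-type 11 highest, the reverse of most members. Adm, the vasodilator peptide adrenomedullin, was at -1.95, -2.42 and -1.63 against -1.27 and 0.17. It was 2.74-fold higher (1.45, SE 0.50), and c-Jun-deleted 9 was the further up. Ddit4, an inhibitor of mTORC1, and Ndrg1 differed by 0.22 (SE 0.28) and 0.35 (SE 0.50), both with overlapping groups.

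**Figure D3:**
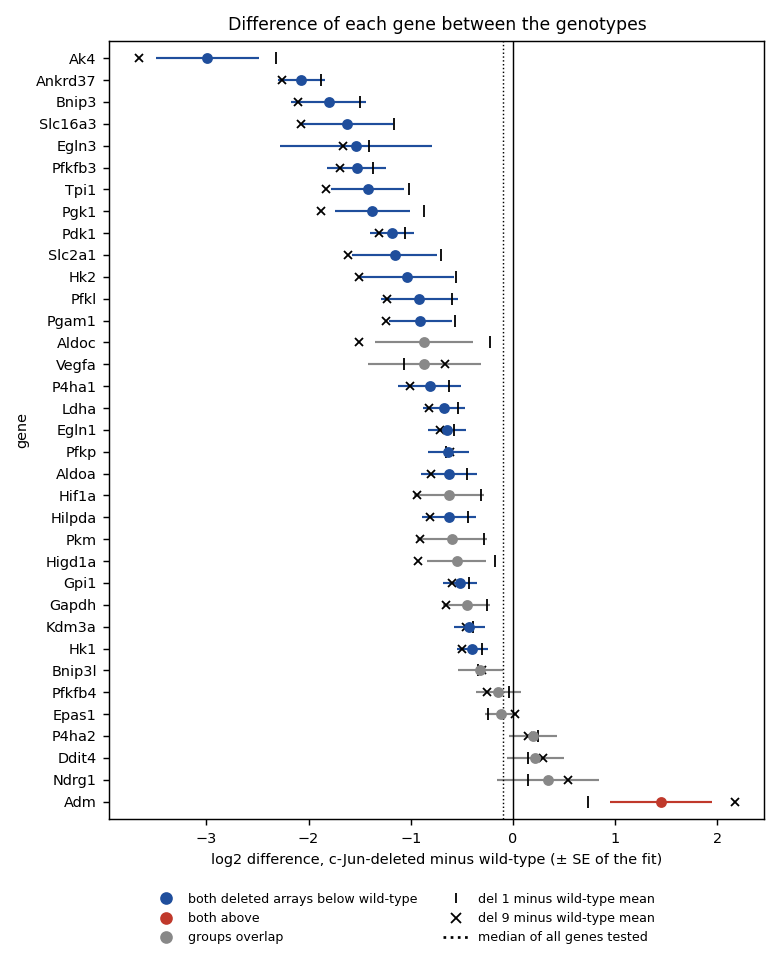
Log2 difference of each of the 35 genes (circles, with the SE of the fit as bars), sorted from lowest to highest; blue marks genes whose deleted arrays both lie below wild-type, red above, grey overlap. Ticks and crosses give del 1 and del 9 separately against the wild-type mean, and the dotted line is the median of all genes tested, -0.09; from Ak4 (-2.99) to Kdm3a (-0.43) all circles lie to the left of it.

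Most of the lower members were further down on c-Jun-deleted 9 than on c-Jun-deleted 1. Without c-Jun-deleted 9, the difference was -0.71 for Slc2a1, -0.87 for Pgk1, -0.56 for Hk2, -0.59 for Pfkl and -0.56 for Pgam1. It was -0.23 for Aldoc, -0.31 for Hif1a, -0.28 for Pkm, -0.18 for Higd1a and 0.73 for Adm. Without c-Jun-deleted 1, the differences of Aldoc, Higd1a, Pkm and Hif1a were -1.51, -0.92, -0.91 and -0.94. Vegfa was at -0.41 without wild-type 11 and at -1.30 without wild-type 14, and Pkm at -0.39 without wild-type 14. Among the members nearer to 0, Gapdh was at -0.25 without c-Jun-deleted 9, Bnip3l at -0.17 without wild-type 14, and P4ha2 at 0.04 without wild-type 11 and 0.36 without wild-type 5. Ndrg1 ranged from -0.01 without wild-type 14 to 0.77 without wild-type 11, Ddit4 from -0.01 without wild-type 11 to 0.38 without wild-type 14, Pfkfb4 from -0.31 without wild-type 11 to -0.04 without c-Jun-deleted 9, and Epas1 from -0.25 without c-Jun-deleted 9 to 0.02 without c-Jun-deleted 1. Ankrd37, Bnip3, Slc16a3, Pfkfb3, Tpi1, Pdk1 and Ak4 moved by less than 1.5 times when any single array was left out. The median over the members was -0.53 without c-Jun-deleted 9, -0.91 without c-Jun-deleted 1 and -0.83 without wild-type 11. Within slide 1, where 1 array stands against 1, it was -0.44, and within slide 2 it was -0.89.

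Members with several usable probes mostly gave 1 direction. Besides the probes used, 27 others for 17 members passed the filter, and 24 of them had the sign of the probe used. The exceptions were both further Epas1 probes and the dim Pfkfb4 probe. Whether the groups overlapped depended on the probe for Gapdh, P4ha1, Hilpda, Higd1a, Bnip3l and Epas1. Every probe in the authors' deposited table differs by at least 2-fold between its group means, and 16 of them belong to 11 members. Egln3, Hk2 and Epas1 also have probes past 2-fold here and are not among these 11 members, so fold alone does not account for the list. Ankrd37 has a log2 difference of -2.07, Ak4 of -2.99 and Adm of 1.45 in the authors' deposited table.

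Genes of the same pathways outside the module were compared with it, from lists that were also written with earlier results known. Of 55 other HIF pathway genes measured, 40 were lower and 15 higher, 21 (38.2%) were below and 2 (3.64%) above the wild-type range, where all genes tested had 20.2% and 13.3%, 0 passed limma's test at an adjusted p below 0.05, and the median difference was -0.25. The 5 with the largest differences and no overlap were divided in direction. Nos2, the inducible nitric oxide synthase, was at -0.77, 1.47 and -0.40 against -2.14 and -1.97 (-2.16, SE 0.72). Nfil3, a bZIP transcription factor, was at 6.17, 5.17 and 6.33 against 4.69 and 4.05 (-1.52, SE 0.44). Mif, the macrophage migration inhibitory factor, was at 7.36, 7.06 and 7.74 against 6.29 and 5.46 (-1.51, SE 0.34), with the same order of arrays as Tpi1 and Ldha. Ets1, a transcription factor abundant in lymphocytes, was at -0.05, 0.49 and -0.99 against 1.85 and 2.27 (2.24, SE 0.48). Bhlhe41, a repressor that is also on the list of large peritoneal macrophage markers, was at -2.64, -3.06 and -3.64 against -1.54 and -0.998 (1.84, SE 0.36).

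The other genes of glycolysis, pyruvate use and the pentose phosphate pathway were nearly evenly divided in sign. Of 45 measured, 24 were lower and 21 higher, while 17158 of all 27956 genes tested were lower. In this list 10 (22.2%) were below and 5 (11.1%) above the wild-type range, near the 20.2% and 13.3% of all genes tested. Of the 45, 0 passed limma's test at an adjusted p below 0.05, and the median difference was -0.12, close to that of all genes. Slc2a3, the glucose transporter Glut3, was higher, at -1.80, -1.15 and -2.73 against -0.67 and 0.02 (1.56, SE 0.53), unlike Slc2a1. Pdk3, a paralog of Pdk1, was at 2.31, 2.15 and 2.94 against 1.71 and 1.27 (-0.98, SE 0.31). Gpd2, the mitochondrial glycerol phosphate dehydrogenase, was at 1.80, 2.55 and 2.65 against 1.68 and 1.16 (-0.91, SE 0.34). Hk3, the hexokinase of myeloid cells, was at 3.32, 4.22 and 3.60 against 3.23 and 2.51 (-0.84, SE 0.37). Pgam2, the muscle form of the mutase, was at -2.16, -2.59 and -2.18 against -3.05 and -3.98 (-1.21, SE 0.33).

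**Figure D4:**
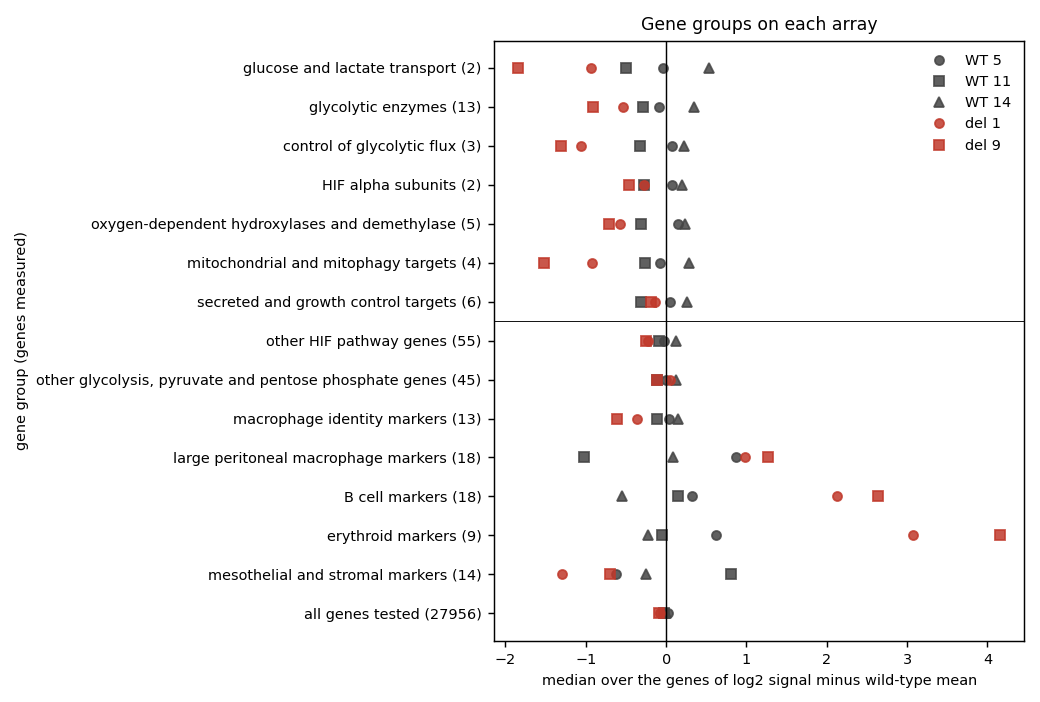
Median over the genes of each group (rows, with the number measured) of log2 signal minus the wild-type mean, 1 symbol per array. Above the line, both deleted arrays (red) are left of all wild-type arrays for transport, enzymes, flux control, hydroxylases and mitochondrial targets, whereas B cell and erythroid markers have them far to the right and all genes tested sit near 0.

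The cell mixture on the arrays also differed between the groups, and in bulk RNA fewer cells of a type and less RNA per cell cannot be told apart. Macrophage identity markers were present on all arrays. Of 13 measured, 10 were lower in the deleted group, with a median difference of -0.50. Without Lyz2, the linear scaled signals of the other 12 summed to 857 to 1164 on the wild-type arrays and to 991 and 897 on the deleted arrays. Their median against the wild-type mean was -0.34 and -0.65 on the deleted arrays, the same order as the module. B cell markers were higher for 18 of 18, with sums of 84.2 to 137 against 423 and 619, and none of them was below background on all arrays of a group. Large peritoneal macrophage markers were higher for 17 of 18, with sums of 212 to 496 against 659.5 and 736. Erythroid markers were higher for 6 of 9, with sums of 2.51 to 3.53 against 12.3 and 25.1. The 5 above the wild-type range were all globin genes, Epor overlapped, and 3 others (Slc4a1, Car1 and Ermap) lay below the range. Hbb-b1 and Hbb-b2 were well above background on the deleted arrays alone, so they passed the filter only through that group. Mesothelial and stromal markers were lower for 13 of 14, with sums of 5.30 to 12.3 against 3.60 and 5.00, and Pdgfra was not well above background on any deleted array. The part of these shifts in the values of the module was not tested.

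The remaining marker lists were these. All 8 mast cell markers were higher on average, each with overlapping groups, with sums of 41.7 to 122 against 99.5 and 93.3. T and NK cell markers were higher for 9 of 15, with sums of 24.2, 59.6 and 19.1 on wild-type 5, 11 and 14 against 59.6 and 81.0. By these sums wild-type 11 lay at the level of c-Jun-deleted 1, but Cd2 was the brightest marker on the deleted arrays (5.06 and 5.44). By the median over the markers against the wild-type mean, wild-type 11 was the highest array, at 1.49 against 0.04 and 0.66 on the deleted arrays. Monocyte-derived macrophage and dendritic cell markers were lower for 8 of 13 (sums of 113 to 240 against 167 and 199). Neutrophil and eosinophil markers were lower for 6 of 10 (sums of 159.6 to 174 against 158 and 173), and Ngp was not well above background on any deleted array. Csf3r, at 7.26, 7.16 and 7.26 against 7.09 and 7.32, made up most of these sums. Dimmer markers could vary widely beneath it, such as S100a9 at -2.64, -2.61 and -4.37 against -4.14 and 0.20.

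How far the module lies below wild-type depended on what the arrays were scaled to. When each array was centred on its median, the median of all genes moved from -0.09 to 0.12 and that of the members from -0.64 to -0.43, and 9 members instead of 22 were below the wild-type range. When each array was instead shifted by the macrophage identity markers without Lyz2, an alternative added after the data were seen, the median of all genes was 0.42 and that of the members -0.13. On that scale 25 of 35 members were lower, 11 were below the wild-type range and 5 above it. Hk1, Gapdh, Kdm3a and Bnip3l changed sign there, as did Pfkfb4 and Epas1. Ak4 (-2.48), Ankrd37 (-1.55), Bnip3 (-1.29), Slc16a3 (-1.11), Pfkfb3 (-1.02) and Egln3 (-1.02) stayed at least 2-fold lower, and Ldha was at -0.16. The shares of all genes outside the wild-type range on these scales are not given, so the counts of 9, 11 and 5 members have no background beside them. Median centring and the macrophage scaling shift a whole array by 1 number, so by construction they leave the gap between the members and all genes as it was. Quantile normalization, which is not such a shift, gave medians of -0.60 and -0.01, as in the plot of processing choices.

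**Figure D5:**
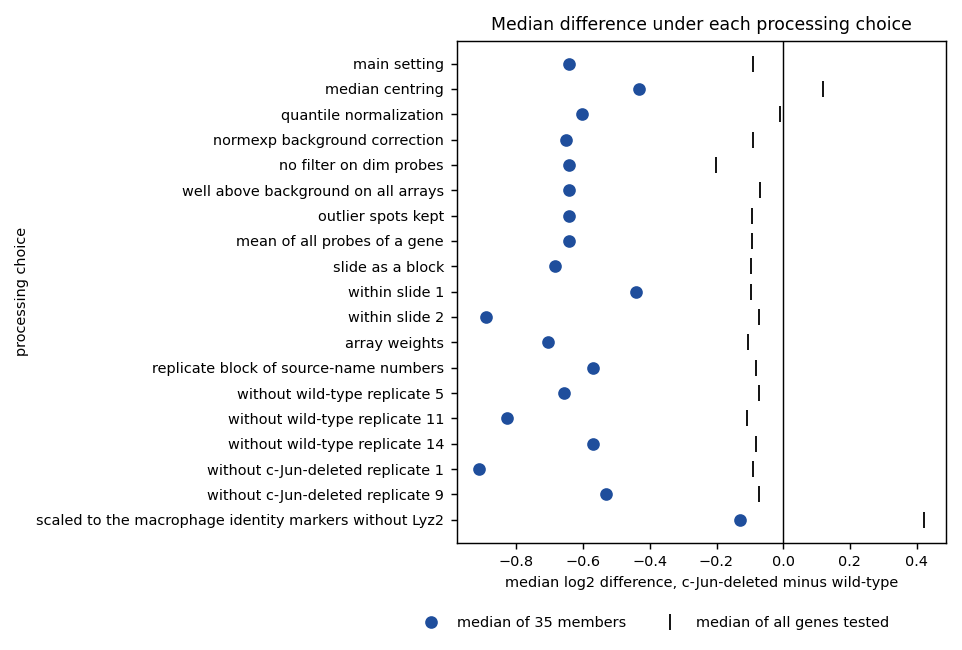
Median log2 difference (c-Jun-deleted minus wild-type) over the 35 members (blue circles) and over all genes tested (black ticks) for the main setting and 18 other ways of processing the arrays (rows). The circles lie between -0.91 and -0.43 except for the scaling to macrophage markers (-0.13), and each circle is to the left of its tick.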

How the data were processed

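RNA of adherent peritoneal macrophages from 3 wild-type and 2 c-Jun-deleted mice was labelled with Cy3 and hybridised to 1-colour Agilent arrays, per the labels. The deposited scanner files hold spot intensities written by Feature Extraction 11.5.1.1, per the file headers. The processed signal there is background-subtracted and not scaled between arrays. The deposited files also hold flags of another kind, 0 or 1, for background, saturation and outlying spots. The authors' deposited table holds log2 values, 1 mean per group, for 1709 probes. Its column medians are 0.54 (wild-type) and 1.19 (c-Jun-deleted), and what was subtracted from each probe stays unknown, so only the difference of the columns was used. That difference was within 0.001 of the one computed here for 1692 probes (largest gap 0.17). Its header lists 4 wild-type arrays, and 1 of them is not analysed here.

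Control and outlying spots were left out, and the spots of a probe were averaged. The main value was log2 of the processed signal minus log2 of each array's 75th percentile (437 to 596). A probe was kept if 2 or more of the 5 arrays had it well above background. Transcript accessions were matched to RefSeq symbols (28026 of 55681 probes), and the brightest kept probe with a value on every array stood for a gene. Groups were compared over all 27956 genes with limma 3.58.1 in R 4.3.3 (lmFit, eBayes, 2-sided, Benjamini-Hochberg, threshold 0.05), which was tested on simulated data. With 3 against 2 arrays an exact permutation test cannot reach 0.05, and none was run. Promoters were searched with Python 3.11.15.

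The members, the other pathway lists and the marker lists were chosen with earlier results of these data known. Values per array are given for members with a difference of at least 0.5 or with no overlap, for Hif1a, Epas1, Egln1, Egln3, Slc2a1 and Ldha, and for Eno1, which was added after its values were seen. The named genes of the other lists are the 5 with the largest difference among those with no overlap and all arrays above background. Alternatives were the scaling (median, quantile, macrophage markers), background correction, dim-probe filter, outlying spots, probe choice, slide, array weights, a replicate block, each array left out, and the authors' table. The planned normexp correction was run on the median signal, since the files used here hold no mean signal. The source names give wild-type 5 and c-Jun-deleted 1 the mouse number 1, and wild-type 11 and c-Jun-deleted 9 the number 2.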

Additional observations from a re-analysis of the deposited data

How the results depend on the processing

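The median difference of the members, -0.64, lay between -0.91 and -0.43 under every alternative run on the scanner files except the scaling to macrophage markers without Lyz2 (-0.13, chosen after seeing the data). Over the 10 members whose probe is in the authors' deposited table, which lists only differences of at least 2-fold, it was -1.48. With each array left out in turn it ranged from -0.91 to -0.53. The 22 members below the wild-type range became 9 with median centring, 11 with the macrophage scaling, and 22 to 29 with an array left out. The shares of all genes below or above the range are not given for these alternatives. The 1 member above the range, Adm, became 2 with the mean of all probes, 3 within slide 2, 5 with the macrophage scaling, and 1 to 2 with an array left out. The 0 genes past limma's adjusted threshold became 187 with median centring and 1 with array weights, and stayed 0 in the other alternatives that give this count, which within slide 1 and the authors' table do not. Fewer arrays, a shifted zero or a truncated table enter these alternatives by construction, and the cause was not tested further. Counts of groups without overlap have no value in the fits with slide, array weights or replicate block, nor within slide 1. Of the 35 members, 30 kept their sign in all 18 alternatives other than the scaling to macrophage markers, where these gave a value. These were 29 lower and 1 higher, and 26 members kept their sign with that scaling included. The alternatives were not all separate checks of the members. Removing the dim-probe filter, or requiring signal well above background on all arrays, left each member at its main value. Keeping outlying spots changed Gpi1 alone. The replicate block gave each member the same difference as leaving out wild-type 14, which has no same-numbered deleted array.

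The replicate block, a paired fit by the mouse number in the source names, gave a median of -0.57 and 0 genes past the threshold. Its differences for the members were those found without wild-type 14, so it adds no separate check of their signs. Deviations of same-numbered arrays correlated at -0.07 and 0.19 across genes. With 2 deleted arrays, the deviations of these mirror each other, and the swapped pairs gave 0.07 and -0.19. The correlations therefore cannot decide whether the numbers pair the samples. The main fit did not pair them, and the numbers coincide with the slides. With 2 deleted arrays, every difference rests on arrays that also differed in their markers of other cells.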
